A study of Mus musculus with 16 samples.

Results

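The genes of 8 Toll-like receptors (Tlr1, Tlr2, Tlr3, Tlr4, Tlr5, Tlr6, Tlr7 and Tlr9), of the co-receptor Cd14 and of the adaptor Myd88 were followed in epidermal cells of mice fed with or without a dietary source of ligands for the aryl hydrocarbon receptor (AhR). The 10 genes were chosen by name, with earlier results of these data known, and each matched 1 of the 50600 gene identifiers of the count table. All 10 reached the minimum of 10 counts in total that 22155 genes passed, and each would have done so without the AhR-poor papain libraries, with between 34 counts (Tlr6) and 47158 counts (Myd88) outside that group.

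The cells came from the footpad epidermis of 16 female C57/B6J mice, with 1 RNA-seq library for each mouse. For 3 wk, starting when they were 5 wk old, the mice ate either a purified diet poor in AhR ligands (labelled SYNTH, here the AhR-poor diet) or that diet supplemented with indole-3-carbinol (I3C) at 200 ppm, a plant compound whose products bind AhR (the I3C diet). Papain, a plant protease used as an allergen, was injected at 50 μg in PBS, and PBS served as vehicle. With cells taken 6 hr after the injection, this gives 4 libraries in each of 4 groups: I3C vehicle, I3C papain, AhR-poor vehicle and AhR-poor papain. Mice on the same diet shared a cage, so an effect of the diet and one of the cage cannot be told apart, and all mice were of 1 strain, so the groups differ in dietary ligands of AhR and not in the receptor gene.

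Toll-like receptors are membrane proteins that recognise conserved molecules of microbes and of damaged cells. Tlr1, Tlr2, Tlr4, Tlr5 and Tlr6 encode receptors of the cell surface, and Tlr3, Tlr7 and Tlr9 receptors that bind nucleic acids in endosomes. Most pass their signal to the adaptor MyD88, which leads to NF-κB and inflammatory cytokines, whereas Tlr3 uses another adaptor, TRIF, and Tlr4 uses both. In the skin these receptors are found on keratinocytes as well as on Langerhans cells and on leukocytes that enter inflamed tissue.

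Library totals ranged from 22500821 to 51844375 counts, and the detection floor was set at 3 counts, or 0.0569 to 0.130 CPM (counts scaled to the library size with TMM factors), which covers counting error only. Levels of different genes are compared per kilobase of exonic length. In the I3C vehicle libraries Myd88 had the highest level, with a median of 37.7 CPM per kb, far above Tlr5 at 1.33, Tlr2 at 0.921, Tlr3 at 0.891 and Cd14 at 0.704 CPM per kb. From Tlr5 to Cd14 the range of each gene overlapped with that of the next in this order. Tlr4 followed at 0.116 CPM per kb, and Tlr1, Tlr9, Tlr6 and Tlr7 had medians from 0.00368 to 0.0174 CPM per kb, with ranges that overlapped from each to the next. These 4 genes were therefore near the detection floor: Tlr7, for example, had 0 to 4 reads per I3C vehicle library. The order differed in the AhR-poor papain libraries, where Cd14 had a median of 83.2 CPM per kb (range 24.3 to 165) and Myd88 47.7 (45.9 to 53.2), so that the ranges of these first 2 genes overlapped, and Tlr2 came next at 12.3 CPM per kb. The group medians of Tlr3 stayed between 0.727 and 0.965 CPM per kb and those of Tlr5 between 0.640 and 1.33.

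**Figure D1:**
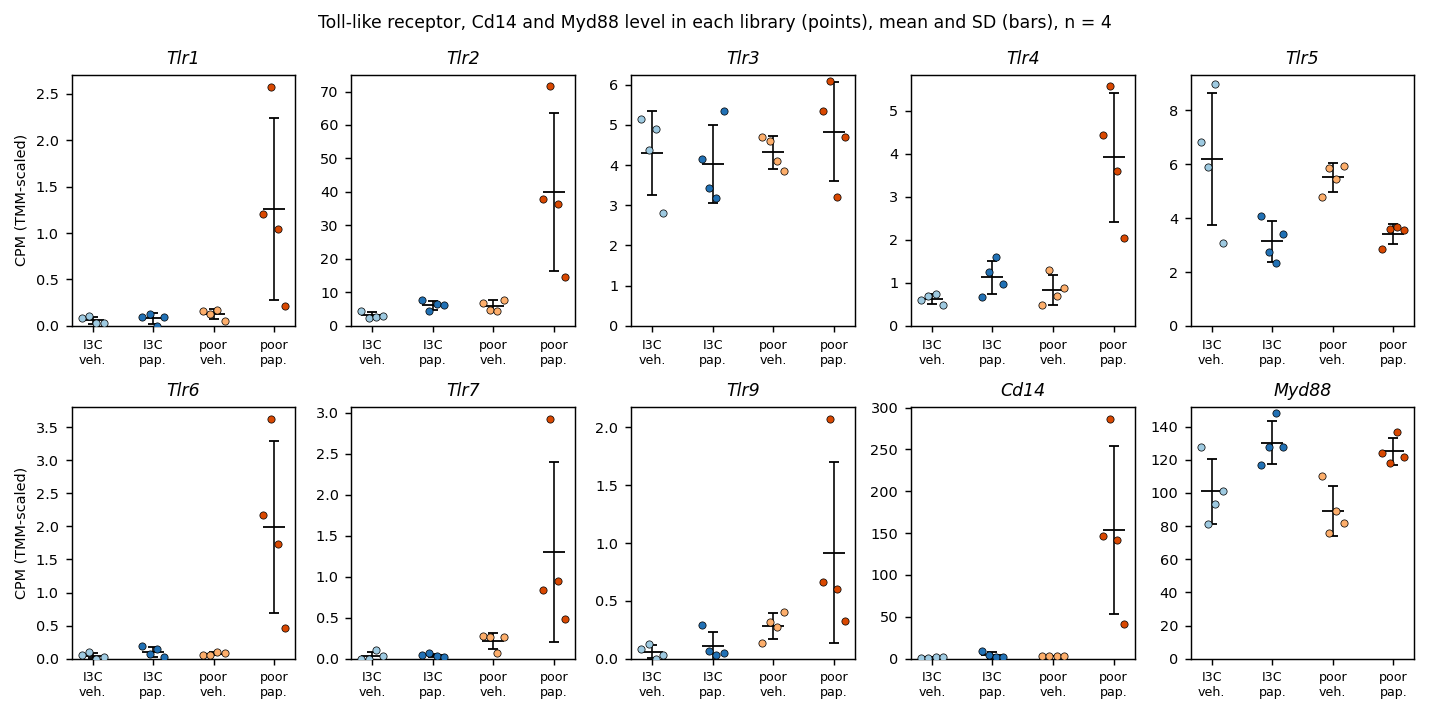
The level of each of the 10 genes in each library, in TMM-scaled CPM (y axis, from 0 and scaled for each gene), for the 4 groups (x axis; veh., vehicle; pap., papain; poor, AhR-poor diet). Points are libraries and bars the mean ± SD (n = 4); Tlr1, Tlr2, Tlr4, Tlr6, Tlr7 and Cd14 were highest in the AhR-poor papain libraries, without overlap with any other group, whereas Tlr3 and Myd88 stayed within 2.82 to 6.09 and 75.7 to 148 CPM.

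To address how papain changed these genes on each diet, the 4 papain libraries were compared with the 4 vehicle libraries of the same diet by the quasi-likelihood F test of edgeR. A gene was called when its Benjamini-Hochberg adjusted p over all 22155 genes was below 0.01 and its log2 fold change was above 1 or below -1, and the p-values given below are of that test. On the AhR-poor diet papain raised 6 of the 10 genes, Tlr1, Tlr2, Tlr4, Tlr6, Tlr7 and Cd14, whereas 6.04% of all genes were called higher, and it lowered 0, against 2.42% of all genes. Of the 10 genes, 9 had an unadjusted p under 0.05 in this comparison (Tlr5 in the lower direction), as did 9301 of all 22155 genes. The median log2 fold change of the 10 was 2.40, against -0.00 over all genes. The libraries hold a mixture of cells, in which more cells of a type cannot be told apart from more RNA of a gene per cell. In the AhR-poor papain libraries, markers of monocytes and macrophages summed to 91.1 to 301 CPM, against 11.5 to 62.3 CPM in the other 3 groups. Markers of neutrophils (81 to 551 CPM), dermal fibroblasts (253 to 623) and mast cells (4.87 to 17.3) were likewise above all other libraries. Those reached at most 74.6, 171 and 4.14 CPM. The sums of the other marker lists overlapped with those of other groups. The part of any of these cells in these rises was not tested. On the I3C diet 0 of the 10 were called higher and 0 lower, against 3.69% and 5.29% of all genes. Here 5 of the 10 had an unadjusted p under 0.05, near the share over all genes (9590 of 22155). The median log2 fold change was 0.60 against -0.04 over all genes, and the Wald test of DESeq2 also called 0 in either direction.

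To test the diet, the AhR-poor libraries were compared with the I3C libraries under the same treatment. With vehicle, 0 of the 10 genes were called higher and 0 lower, against 1.59% and 0% of all genes. An unadjusted p under 0.05 was found for 3 of them (Tlr2, Tlr7 and Tlr9), and for 2765 of all 22155 genes. DESeq2 also called 0 of the 10, and their median log2 fold change was 0.73 against -0.01 over all genes. With papain, 7 were higher in the AhR-poor libraries, the 6 genes above and Tlr9, and 0 lower, against 7.15% and 0.0993% of all genes. The median log2 fold change of the 10 genes was 2.86, against 0.01 over all genes. The AhR-poor papain libraries enter this comparison and that of papain on the AhR-poor diet, so the 2 counts are not independent.

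The difference between the diets in their papain response was tested directly, as the interaction of diet and papain. By edgeR 0 of the 10 genes were called in either direction, against 0.0181% of all genes higher and 0% lower. An unadjusted p under 0.05 was found for 5 of the 10, and for 2987 of all 22155 genes. The median of the 10 was 1.58 on the log2 scale against 0.03 over all genes. Cd14 had the lowest adjusted p, with a papain response 4.10 larger (log2) with AhR-poor than with I3C feeding (SE 0.96, adjusted p = 0.0962), and was called by DESeq2 (4.14, adjusted p = 0.000392). By edgeR the papain responses of the 2 diets are thus not shown to differ for any of the 10 genes, and for Cd14 the 2 methods disagree. The estimates of the other 9 genes ranged from 0.12 (Myd88) to 3.64 (Tlr6) on the log2 scale.

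**Figure D2:**
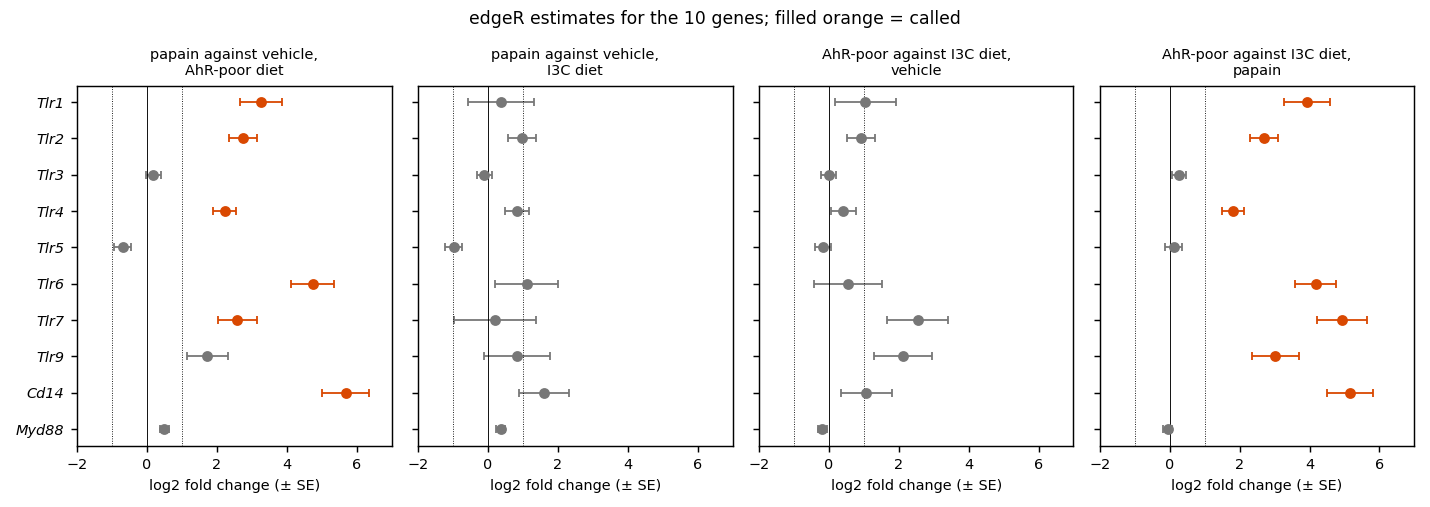
The log2 fold change of each gene (x axis, ± SE from the edgeR fit, n = 4 libraries a group) in the 4 comparisons, with dotted lines at -1 and 1. Orange points were called: 6 genes for papain on the AhR-poor diet, 7 for the diet with papain, and 0 in the panels of papain on the I3C diet and of the diet with vehicle.

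Among the receptors of the cell surface, Tlr2 binds bacterial lipoproteins as a pair with either Tlr1 or Tlr6. The gene of Tlr2 lies on chromosome 3 (positions 83836272 to 83841767, minus strand, mm10), and those of Tlr1 (64924679 to 64933563) and Tlr6 (64952031 to 64960097) next to each other on the minus strand of chromosome 5. Tlr2 stood at 2.50, 2.61, 2.94 and 4.54 CPM in the I3C vehicle libraries, at 4.39, 6.19, 6.48 and 7.65 with I3C papain, at 4.38, 4.76, 6.86 and 7.80 with AhR-poor vehicle, and at 14.6, 36.3, 37.8 and 71.6 with AhR-poor papain. All 4 AhR-poor papain libraries were thus above every other library, and the other 3 groups overlapped in pairs. On the AhR-poor diet papain raised Tlr2 by 2.75 on the log2 scale (SE 0.39, adjusted p = 9.27e-05), and the diet with papain by 2.70 (SE 0.39, adjusted p = 0.000236). On the I3C diet the log2 fold change with papain was 0.98 (SE 0.40, adjusted p = 0.0757), and that of the diet with vehicle was 0.92 (SE 0.40, adjusted p = 0.356).

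Tlr6 was close to absent outside the AhR-poor papain group. It had 0, 1, 2 and 4 reads in the I3C vehicle libraries, 1, 2, 5 and 8 with I3C papain, 2, 2, 3 and 4 with AhR-poor vehicle, and 17, 40, 88 and 191 with AhR-poor papain, where it reached 0.462, 1.73, 2.17 and 3.62 CPM. The last group did not overlap with the others. The log2 fold change of Tlr6 was 4.74 for papain on the AhR-poor diet (SE 0.62, adjusted p = 1.38e-05) and 4.18 for the diet with papain (SE 0.59, adjusted p = 6.25e-05).

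Tlr1 was likewise highest in the AhR-poor papain group. It was counted 1, 1, 3 and 4 times in the I3C vehicle libraries, 0, 4, 4 and 4 times with I3C papain, 2, 5, 6 and 7 times with AhR-poor vehicle, and 8, 24, 49 and 136 times with AhR-poor papain, which equals 0.218, 1.04, 1.21 and 2.58 CPM. Its lowest AhR-poor papain library, at 0.218 CPM, was still above the highest of the other groups, at 0.173 CPM. The log2 fold change was 3.26 for papain on the AhR-poor diet (SE 0.61, adjusted p = 0.000424) and 3.93 for the diet with papain (SE 0.66, adjusted p = 0.000335), and without replicate T105 these values were 2.60 and 3.26. Tlr1 and Tlr6 are similar in sequence: 259 stretches of 100 bases are found in the transcripts of both, which is 7.89% of those of Tlr1 and 7.09% of those of Tlr6, so a part of their reads may have been assigned to either or to neither.

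Tlr4 recognises bacterial lipopolysaccharide (chromosome 4, 66827584 to 66930284, plus strand). Its level was 0.480, 0.603, 0.688 and 0.734 CPM in the I3C vehicle libraries, 0.682, 0.970, 1.25 and 1.60 with I3C papain, 0.490, 0.692, 0.885 and 1.30 with AhR-poor vehicle, and 2.04, 3.59, 4.43 and 5.58 with AhR-poor papain. The AhR-poor papain libraries were again all above the rest. On the AhR-poor diet papain raised Tlr4 by 2.22 on the log2 scale (SE 0.33, adjusted p = 3.75e-05), the smallest of the 6 rises, and the diet with papain by 1.81 (SE 0.32, adjusted p = 0.000482). With I3C the log2 fold change of papain was 0.83 (SE 0.35, adjusted p = 0.0749).

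Cd14 is a surface protein that hands lipopolysaccharide to Tlr4 and is a classical marker of monocytes. It had 0.804, 0.969, 1.47 and 2.49 CPM with I3C vehicle, 1.62, 1.88, 4.10 and 9.45 with I3C papain, 2.81, 2.82, 2.87 and 3.43 with AhR-poor vehicle, and 42.0, 142, 146 and 286 with AhR-poor papain. Its 4 AhR-poor papain libraries stood above all others, and its 4 AhR-poor vehicle libraries above the 4 with I3C vehicle. Of the 10 genes it had the largest papain response on the AhR-poor diet, with a log2 fold change of 5.69 (SE 0.67, adjusted p = 2.52e-05, 51.7-fold), and the difference between diets with papain was 5.16 (SE 0.65, adjusted p = 9.45e-05). The vehicle difference of 1.07 between diets (SE 0.73, adjusted p = 0.631) was not called, and neither was the papain response on the I3C diet, at 1.60 (SE 0.71, adjusted p = 0.100). That response rested on replicate T106, at 9.45 CPM, and was 0.80 without it (adjusted p = 0.404), while the diet difference with papain was then 5.96.

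Tlr5, the receptor of bacterial flagellin (chromosome 1, 182954788 to 182976044, plus strand), did not follow the other surface receptors. It had 3.09, 5.91, 6.81 and 9.0 CPM with I3C vehicle, 2.34, 2.73, 3.41 and 4.07 with I3C papain, 4.79, 5.46, 5.88 and 5.93 with AhR-poor vehicle, and 2.86, 3.56, 3.58 and 3.68 with AhR-poor papain. On the AhR-poor diet all papain libraries were below all vehicle libraries, and on the I3C diet 1 vehicle library, T111 at 3.09 CPM, lay among those with papain. The log2 fold change with papain was -0.98 on the I3C diet (SE 0.24, adjusted p = 0.00313), just inside the minimum of -1 for a call, and -0.69 on the AhR-poor diet (SE 0.24, adjusted p = 0.0318). Without T111 the first value was -1.20 and the gene was called. Between diets Tlr5 differed by -0.17 with vehicle (SE 0.23, adjusted p = 0.863) and by 0.12 with papain (SE 0.24, adjusted p = 0.799).

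Of the endosomal receptors, Tlr7 binds single-stranded RNA and Tlr9 binds DNA with unmethylated CpG. Tlr7 (chromosome X, 167304929 to 167330558, minus strand) was counted 0, 0, 1 and 4 times with I3C vehicle, 1, 1, 2 and 2 times with I3C papain, 3, 10, 10 and 10 times with AhR-poor vehicle, and 18, 22, 34 and 154 times with AhR-poor papain. The last 4 libraries had 0.489, 0.952, 0.837 and 2.92 CPM in the same order and did not overlap with the other groups. Since all I3C papain libraries were at or under 3 counts, the difference between diets with papain is given as a lower bound against that floor in each library: Tlr7 was at least 15.8-fold higher with AhR-poor than with I3C feeding (adjusted p = 8.25e-05), or 9.22-fold without replicate T105. On the AhR-poor diet papain raised it by 2.59 on the log2 scale (SE 0.55, adjusted p = 0.00133), a call that depended on T105, as it was 1.77 without that library (adjusted p = 0.011). With vehicle, Tlr7 differed by 2.54 on the log2 scale between diets (SE 0.88, adjusted p = 0.172), and by 4.12 without T110, the I3C vehicle library with 4 reads (adjusted p = 0.0725).

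Tlr9 (chromosome 9, 106222598 to 106226883, plus strand) was counted 0, 1, 3 and 5 times with I3C vehicle, 1, 2, 2 and 12 times with I3C papain, and 5, 11, 12 and 15 times with AhR-poor vehicle. With AhR-poor papain it had 0.326, 0.606, 0.665 and 2.07 CPM, the lowest from 12 reads, and overlapped with AhR-poor vehicle at 0.136 to 0.402 CPM, as did the 2 I3C groups, whereas the groups of different diets under the same treatment did not. The log2 fold change between diets was 3.02 with papain (SE 0.67, adjusted p = 0.00387) and 2.12 with vehicle (SE 0.83, adjusted p = 0.259). With papain it fell short of the call without T105 (2.18, adjusted p = 0.0204) and was 4.24 without T106, the I3C papain library with 12 reads. Papain on the AhR-poor diet gave 1.73 (SE 0.59, adjusted p = 0.0316), or 0.90 without T105.

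Tlr3, the receptor of double-stranded RNA (chromosome 8, 45395665 to 45411080, minus strand), had levels that overlapped in all 4 groups. They were 2.82 to 5.14 CPM with I3C vehicle, 3.17 to 5.35 with I3C papain, 3.86 to 4.69 with AhR-poor vehicle and 3.20 to 6.09 with AhR-poor papain. Its log2 fold changes lay between -0.10 (papain on the I3C diet, SE 0.21) and 0.27 (diet with papain, SE 0.21), with adjusted p-values from 0.42 to 1. Of the exonic bases of Tlr3, 381 are shared with Gm45542 on the opposite strand, and since the strand setting of the counting is not given in the sources used here, reads of the 2 genes may not be told apart.

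Myd88, the adaptor used by most of these receptors and by the receptors of interleukin-1 (chromosome 9, 119335934 to 119341411, minus strand), was expressed far above them in each group but AhR-poor papain, where Cd14 reached its level per kb. It had 81.4 to 128 CPM (median 97.1) with I3C vehicle, 117 to 148 (median 128) with I3C papain, 75.7 to 110 (median 85.5) with AhR-poor vehicle and 118 to 137 (median 123) with AhR-poor papain. The papain libraries were above all vehicle libraries on the AhR-poor diet, and overlapped with them on the I3C diet. The log2 fold changes were small, at 0.49 (SE 0.13, adjusted p = 0.00574) and 0.37 (SE 0.13, adjusted p = 0.0297), and did not reach the minimum of 1. Between diets they were -0.18 with vehicle and -0.06 with papain (SE 0.13 each, adjusted p = 0.638 and 0.811). The gene shares 290 exonic bases with Acaa1a on the opposite strand.

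The sequence before the start of the 10 genes was examined, whether or not a gene was called. The RefSeq promoter windows of GRCm38.p6, from 250 bases before to 50 after the start, held 7 of the 10 genes in 9 windows, and Tlr4, Tlr7 and Cd14 had none. Of the 6 genes that papain raised on the AhR-poor diet, only Tlr1, Tlr2 and Tlr6 were thus covered. The counts below also include Tlr3, Tlr5, Tlr9 and Myd88, so they do not describe those 6 genes. The 5 motifs below were searched on both strands in these and in all 32851 windows. Counts below are of genes and percentages of windows. In the order below, the motifs were in 0, 4, 3, 2 and 2 of the 9 windows. The core of the xenobiotic response element that AhR binds, GCGTG, was found in 0 of the 7 genes and in 32.4% of all windows. The core of the interferon-stimulated response element, TTTCNNTTT, was found in 4 of the 7 (Tlr2, Tlr3, Tlr6 and Myd88) and in 10.6% of all windows. The gamma-activated site TTCNNNGAA was found in 3 (Tlr1, Tlr6 and Myd88) and in 8.3%, where the match in Myd88 overlaps the interferon-stimulated one. The kappa B core GGGANNTTC was found in 2 (Tlr2 and Tlr3) and in 3.94%, and GAGGAAG, the core bound by PU.1, a factor of myeloid cells, in 2 (Tlr1 and Tlr9) and in 13.6%. A match is a run of letters, not a site shown to be bound, and an absent match says only that these letters are not in the window. Shown here, with the match in capitals and 20 bases on each side in lower case, are matches outside annotated exons in 3 of the genes called in the comparison of diets with papain. Distances are from the RefSeq start, and the stretches of Tlr2 and Tlr9 lie before the GENCODE gene, whereas that of Tlr6 lies in its intron.
Tlr2, chr3:83841771-83841819, minus strand, TTTCNNTTT, 191 bases before the start: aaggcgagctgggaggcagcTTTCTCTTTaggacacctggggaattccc
Tlr6, chr5:64959242-64959302, minus strand, 3 overlapping matches of TTTCNNTTT in a run of 21 bases from 116 bases before the start of 1 of its 2 windows: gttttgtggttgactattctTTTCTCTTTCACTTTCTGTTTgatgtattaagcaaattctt
Tlr9, chr9:106222466-106222512, plus strand, GAGGAAG, before the start: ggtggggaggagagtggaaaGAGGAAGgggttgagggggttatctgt

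The other genes of the pathway were taken as a list of 42, of which 40 were tested. Of these, 6 were called higher with papain on the AhR-poor diet, 1 with papain on the I3C diet, 2 on the AhR-poor diet with vehicle and 8 with papain, and 0 were called lower in any of the 4 comparisons. These are 15%, 2.5%, 5% and 20% of the 40, against 6.04%, 3.69%, 1.59% and 7.15% of all genes. The median log2 fold changes of the 40 were 0.27, 0.14, 0.00 and 0.02 in that order, against -0.00, -0.04, -0.01 and 0.01 over all genes. Irak4 and Irf7 were the called genes that encode signalling proteins inside the cell, and the others encode receptors, ligand carriers or a trafficking protein. Whether these groups of genes differ was not tested.

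Of the 4 Toll-like receptors that are not among the 10 genes, Tlr11 and Tlr12 were under 10 counts in total and were not tested. Tlr13, which binds bacterial ribosomal RNA, had 0.0272 to 0.120 CPM with I3C vehicle, 0.0571 to 0.390 with I3C papain, 0.109 to 0.272 with AhR-poor vehicle, and 1.22, 7.31, 7.88 and 15.7 with AhR-poor papain. It rose by 5.20 on the log2 scale with papain on the AhR-poor diet (SE 0.67, adjusted p = 2.6e-05) and differed by 5.40 between diets with papain (SE 0.68, adjusted p = 4.99e-05). Tlr8, a neighbour of Tlr7 on chromosome X, had 0 reads in all 4 I3C papain libraries, which allows up to 3 counts in each, and 15, 18, 19 and 47 reads with AhR-poor papain. The difference was at least 7.78-fold against that floor (adjusted p = 1.43e-05), or 6.77-fold without T105, and papain on the AhR-poor diet raised Tlr8 by 2.96 on the log2 scale (SE 0.50, adjusted p = 0.000232).

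None of the 4 other adaptors was called in any comparison. Tirap, which brings MyD88 to the receptors, had means of 8.45, 15.7, 8.01 and 11.7 CPM in the I3C vehicle, I3C papain, AhR-poor vehicle and AhR-poor papain groups, and Ticam1, which encodes TRIF, of 18.8, 22.5, 17.8 and 17.6 CPM. Some of their edgeR differences missed a call only by the minimum fold change. With papain, Tirap rose by 0.89 (log2) on the I3C diet (adjusted p = 3.48e-05) and by 0.54 on the AhR-poor diet (adjusted p = 0.00428). Between diets with papain, Ticam1 differed by -0.35 (adjusted p = 0.00244). Sarm1 stayed at or below 0.354 CPM in every library. Ticam2, which links Tlr4 to TRIF, was at or under 3 counts in all libraries of the 3 other groups and had 0 to 35 reads with AhR-poor papain, of which 2 libraries were above the floor. Of the exonic bases of Ticam2, 838 are shared with Tmed7 on the same strand, so reads there may have been assigned to either or to neither.

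Among the co-receptors and ligand carriers, Ly96, the MD-2 subunit that Tlr4 needs to bind lipopolysaccharide, had means of 3.97, 3.87, 3.88 and 3.72 CPM in the same order and was not called. Lbp, the carrier that brings lipopolysaccharide to Cd14, was higher on the AhR-poor diet with vehicle (log2 fold change 3.41, SE 0.54, adjusted p = 0.00218) and with papain (5.76, SE 0.52, adjusted p = 4.83e-06), with 3.04 to 8.88 CPM and 23.3 to 47.7 CPM, against 0.163 to 0.867 and 0.224 to 1.17 CPM on the I3C diet. Its call with vehicle was lost without T108, T110 or T111 (adjusted p = 0.0123, 0.0105 and 0.0113). Papain on the AhR-poor diet raised Lbp by 2.81 (SE 0.43, adjusted p = 0.000152). Cd36, a scavenger receptor that serves Tlr2 and Tlr6, was higher on the AhR-poor diet by 2.92 with vehicle (SE 0.30, adjusted p = 3.99e-05) and by 3.99 with papain (SE 0.31, adjusted p = 1.58e-07).

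Cd180 and its partner Ly86 form a receptor complex that resembles that of Tlr4 and Ly96. Between diets with papain, they were higher without I3C by 2.65 (SE 0.63, adjusted p = 0.00561) and 3.49 (SE 0.50, adjusted p = 6.41e-05) on the log2 scale, and Ly86 rose by 2.10 with papain on that diet (SE 0.44, adjusted p = 0.00105). The call of Cd180 was lost without T105, T107, T113, T114 or T115, with adjusted p-values from 0.0124 to 0.0227. Without T106, the I3C papain library with 16 Cd180 reads, the differences of Cd180 and Ly86 between diets were 4.39 and 4.44, and that of Tlr13 was 6.13. Among the 4 genes of chaperones and trafficking, Unc93b1, which carries nucleic-acid receptors to the endosome, was 1.29 higher on the AhR-poor diet with papain (SE 0.17, adjusted p = 3.06e-05).

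Below the receptors, 1 of the 14 kinases and ligases was called: Irak4, the kinase recruited by MyD88, which rose by 1.12 with papain on the I3C diet (SE 0.10, adjusted p = 5.79e-08). On the AhR-poor diet its log2 fold change was 0.82 (adjusted p = 4.11e-06), short of the minimum of 1, and the interaction was -0.30 (adjusted p = 0.344). Of the 3 interferon regulatory factors, Irf7, which acts below Tlr7 and Tlr9, rose by 2.25 with papain on the AhR-poor diet (SE 0.48, adjusted p = 0.00239), a call that was lost with only the 8 libraries compared (adjusted p = 0.0113). Its difference between diets with papain was 1.05 (adjusted p = 0.128). Of the 8 negative regulators, Il1rl1 was called. It encodes ST2, the receptor of interleukin-33, which is also a marker of mast cells and of some T cells, and it rose by 6.93 with papain on the AhR-poor diet (SE 0.46, adjusted p = 7.63e-08), with a mean of 37.4 CPM against 0.306 CPM with vehicle and 0.199 CPM with I3C papain.

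**Figure D3:**
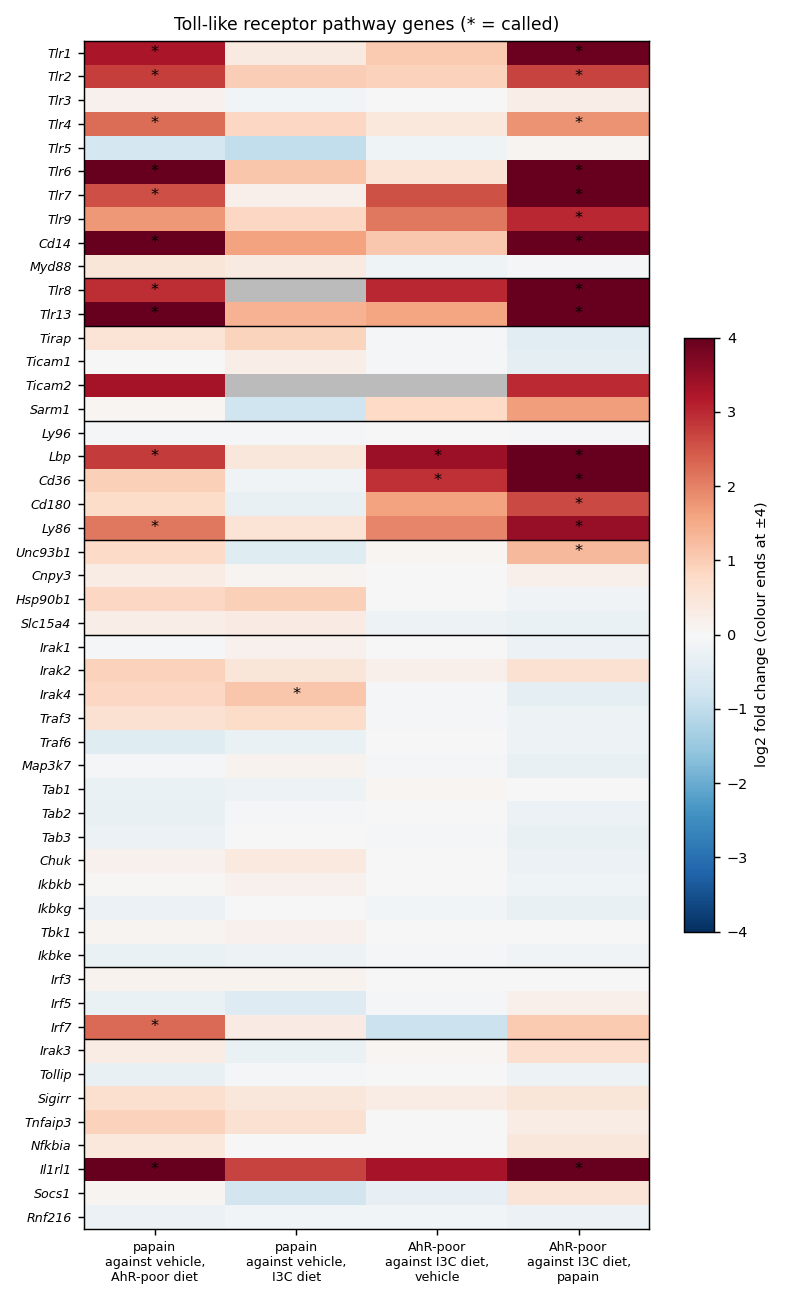
The log2 fold change (colour, from -4 to 4) of the 10 genes and the 40 tested others of the pathway (rows, grouped by role between black lines) in the 4 comparisons (columns), with an asterisk for each call. Of the calls outside the 10 genes, 6 are in the column of papain on the AhR-poor diet, 1 in that of papain on the I3C diet, 2 in that of the diet with vehicle and 8 in that of the diet with papain. Grey cells have no library above the floor in either group.

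The labelled tissue was checked with marker genes. The 7 markers of basal keratinocytes summed to 21069 to 37271 CPM and the 6 of suprabasal keratinocytes to 16902 to 40897 CPM over all libraries. The 6 markers of Langerhans cells, the resident antigen-presenting cells of the epidermis, summed to 154 to 383 CPM with I3C vehicle, 160 to 497 with I3C papain, 619 to 698 with AhR-poor vehicle and 601 to 775 with AhR-poor papain. Of these 6, 0 were called higher on the AhR-poor diet with vehicle and 1 with papain, although all 6 had an unadjusted p under 0.05 in both comparisons. Of all 22155 genes, 2765 had such a p with vehicle and 7089 with papain. Their sum follows mostly Cd74, H2-Ab1 and H2-Aa, with 138719, 64781 and 57863 counts over all libraries, against 18192 for Cd207. Markers of other cells were also present and moved with the groups.

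Leukocyte markers differed between the groups as well. The 11 markers of monocytes and macrophages summed to 18.9 to 28.1 CPM with I3C vehicle, 11.5 to 36.4 with I3C papain, 51.3 to 62.3 with AhR-poor vehicle and 91.1 to 301 with AhR-poor papain. Of them, 9 were called higher with papain on the AhR-poor diet, 2 with papain on the I3C diet, 5 on the AhR-poor diet with vehicle and 11 with papain. The 9 markers of neutrophils summed to 0.861 to 1.89, 44.6 to 74.6, 4.08 to 5.43 and 81.0 to 551 CPM in the same order of groups, and 7, 3, 0 and 5 of them were called higher in the same order of comparisons. The defining neutrophil gene Ly6g was at 0 in all libraries of the 3 groups other than AhR-poor papain. The summed neutrophil list was higher in every papain library than in any vehicle library of the same diet. S100a9 and S100a8 held the most counts of this list over all libraries (28983 and 12655), so they weigh most in the sum. With I3C papain, 3 of the 9 markers were at or under the floor in all libraries, with Ly6g and Camp at 0.

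Cells of the dermis and mast cells showed a difference by diet. The 7 fibroblast markers summed to 9.55 to 13.5 CPM with I3C vehicle, 2.28 to 11.6 with I3C papain, 95.8 to 171 with AhR-poor vehicle and 253 to 623 with AhR-poor papain, and all 7 were higher on the AhR-poor diet under both treatments. The 5 endothelial markers summed to 0.228 to 1.91 CPM on the I3C diet and 9.14 to 44.5 CPM on the AhR-poor diet, and the 5 mast cell markers to 0 to 0.122 and 0.778 to 17.3 CPM. The median sums of the 7 T cell markers were 96.2 and 99.8 CPM with vehicle and 173 and 212 CPM with papain, on the I3C and the AhR-poor diet. These sums follow mostly Thy1, which held 71481 counts over all libraries, against 6433 for the next marker, Trdc. With papain, 1 of the 7 had an unadjusted p under 0.05 on each diet. Of all 22155 genes, 9590 did so on the I3C diet and 9301 on the AhR-poor diet. The median log2 fold change with papain was -0.09 on the I3C diet (0 called) and 0.56 on the AhR-poor diet (1 called). The 4 markers of B cells and plasmacytoid dendritic cells, cells that carry much Tlr7 and Tlr9, reached 3.34 CPM at most. Of these 4, 0 were called in any comparison. Between diets with papain 3 had an unadjusted p under 0.05, as did 7089 of all 22155 genes, with a median log2 fold change of 1.97 over the list.

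Among the AhR-poor papain libraries, T105 was highest for 8 of the 10 genes and T112 lowest for 7. The share of all genes that had this order was not determined. T105 and T112 also had the highest and the lowest sums of monocyte and macrophage markers (301 and 91.1 CPM) and of neutrophil markers (551 and 81.0 CPM). The same held for fibroblast markers (623 and 253 CPM) and for mast cell markers (17.3 and 4.87 CPM). Other lists followed this order in part or not at all. The endothelial sum was highest in T105 (44.5 CPM) and lowest in T107 (16.9 CPM). The sum of B cells and plasmacytoid dendritic cells was highest in T105 (3.34 CPM) and lowest in T104 (1.01 CPM). The Langerhans cell sum was highest in T104 (775 CPM) and lowest in T112 (601 CPM), and the T cell sum highest in T104 (229 CPM) and lowest in T107 (167 CPM). The part of these cells in the differences of the Toll-like receptor genes was not tested.

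**Figure D4:**
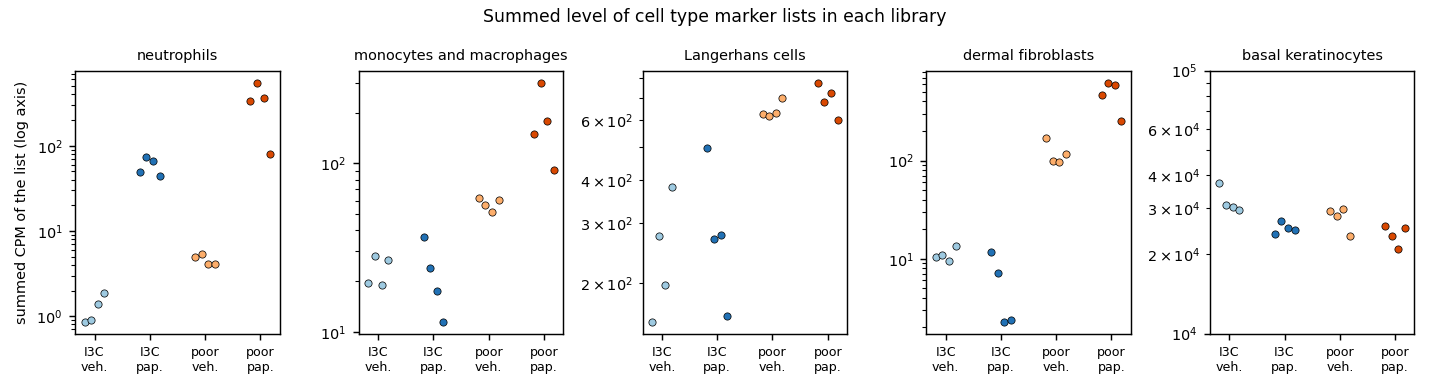
Summed CPM (y axis, log scale with its own range in each panel) of 5 marker lists in each library (points), for the 4 groups (x axis; veh., vehicle; pap., papain; poor, AhR-poor diet). The neutrophil sums of the papain libraries lie above those of the vehicle libraries of the same diet, the monocyte and macrophage, Langerhans cell and fibroblast sums of the AhR-poor libraries lie above those of the I3C libraries, and basal keratinocyte markers stayed between 21069 and 37271 CPM.

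The genes with the most similar pattern were sought for the 6 of the 10 genes with a mean of at least 1 CPM. The measure was the mean absolute difference over the 16 libraries between log2 CPM values centred on each gene's own mean, among 13020 genes, and it is a description of libraries that also share group and depth. Tlr2 was nearest to Tnfrsf1b, a receptor of tumour necrosis factor (0.24), Has1, which makes hyaluronan (0.25), and Il10ra, a chain of the interleukin-10 receptor (0.29). Tlr4 was nearest to Itgam, an integrin of myeloid cells (0.32), Adamts5 (0.33) and Csf2ra (0.35), and Cd14 to A530064D06Rik (0.36), Srgn (0.36) and G0s2 (0.39). The 3 genes that were not called in these comparisons had these neighbours: B4galt2, Sestd1 and Slc25a20 for Tlr3 (0.14 to 0.15), Sec31b, Pla2g4a and Klhl5 for Tlr5 (0.14 to 0.15), and Zfp593, Ada and Nop58 for Myd88 (0.06 to 0.09).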

How the data were processed

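Epidermal cells of 16 mice were sequenced after preparation with a stranded mRNA kit. The authors aligned the reads with STAR to mm10 and deposited raw counts of reads per gene and library, without normalization; the counting tool, annotation and strand setting are not given in the sources used here. Each library took its diet and treatment from its label, and replicate codes (T100 to T115) only name libraries. The methods name 3 sequencing units, which the labels do not assign, so no batch term could be fitted.

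The 10 genes, the pathway and marker lists, the motifs and the tests were chosen with earlier results of these data known. Symbols, positions and exonic lengths are from GENCODE M21 (GRCm38), which gave a symbol for 50376 identifiers. The 22155 genes whose counts summed to 10 or more were fitted in edgeR 4.0.16 (R 4.3.3) with TMM factors (0.937 to 1.07), a mean per group over all 16 libraries, and the robust quasi-likelihood F test. The SE is the log2 fold change divided by the square root of F. Depth was 22500821 to 51844375 counts per library. A fold against a group with no library above 3 counts is a lower bound, and none is given between groups of that kind. The model was tested on simulated data, in which only genes with a mean of at least 1 CPM were changed. That test therefore does not cover genes with lower means, such as Tlr1, Tlr6, Tlr7 and Tlr9.

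All 10 genes were named, the other Toll-like receptors, adaptors and co-receptors, at most 4 called genes of each other list, and the 3 nearest genes by pattern. The fits were repeated by DESeq2 1.42.0 (Wald test), with RLE factors or the library size alone, and with filterByExpr or every gene with a count. They were also repeated on only the 8 libraries compared, and without each library in turn. Calls were further made from the main fit without a minimum fold change, and at an adjusted p below 0.05.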

Additional observations from a re-analysis of the deposited data

Results flagged for a closer look

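In 4 of the 40 combinations of gene and group, 1 library stood apart from the other 3, by its gap to the nearest library as a share of the range of the group (above Dixon's critical value for 4 libraries). Chance flags about 1 in 20 groups. For Cd14 this share was 0.899 in the AhR-poor vehicle group, where T100 had 3.43 CPM and the others 2.81 to 2.87 CPM. For Tlr5 it was 0.859 in the AhR-poor papain group, where T104 had 2.86 CPM and the others 3.56 to 3.68 CPM. For Tlr7 it was 0.961 in the AhR-poor vehicle group, where T102 had 0.0742 CPM, or 3 reads, and the others 0.265 to 0.272 CPM, or 10 reads each. For Tlr9 it was 0.865 in the I3C papain group, where T106 had 0.292 CPM, or 12 reads, and the others 0.0285 to 0.0641 CPM, or 1 to 2 reads.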

How the results depend on the processing

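Over the alternatives, 1153 of 1185 values of the 10 genes kept their direction and side of the threshold, 9 gained a call, 6 lost one and 17 changed sign. The settings without a minimum fold change and at an adjusted p below 0.05 use the main fit. Their values therefore could not change sign or lose a call. Most of the others leave out only 1 library. The number called higher was 5 to 7 for papain on the AhR-poor diet and 6 to 7 for the diet with papain (filterByExpr did not test Tlr1), and 0 under every alternative for the other 2 comparisons of groups. Called lower with papain on the I3C diet was 0, and 1 (Tlr5) with library size only or no minimum fold change and from 0 to 1 when 1 library was left out (called without T106, T109, T111 or T115). In the interaction, 0 were called higher by edgeR and 1 (Cd14) by DESeq2, which called 200 genes of the whole table higher and 5 lower where edgeR called 4 and 0; 10 were higher with library size only, 7 with every gene with a count, and 60 higher and 3 lower at an adjusted p below 0.05. With 1 library left out, the interaction held 2 to 95 genes called higher (95 without T112, 30 without T106). For the diet with vehicle 352 genes of the whole table were higher, 595 by DESeq2 (6 lower) and 582 at an adjusted p below 0.05 (5 lower), and 193 to 233 without T100, T108, T109, T110 or T111. With papain, 22 were lower on the AhR-poor diet, 6 without T104, 9 to 11 without T113, T114 or T115 or with library size only, 34 without T106, 70 at an adjusted p below 0.05, and 680 with no minimum fold change. That last setting gave 2749 higher and 2228 lower with papain on the AhR-poor diet (1338 and 536 before) and 2821 and 2865 on the I3C diet (818 and 1171 before).

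The call of Tlr9 for the diet with papain was also lost with only the 8 libraries compared (adjusted p = 0.0188) and without T113, T114 or T115 (0.0151, 0.0159 and 0.0188), and those of Cd180 for the diet with papain and of Irf7 for papain on the AhR-poor diet with only the 8 libraries (0.0217 and 0.0113). Tlr9 with papain on the AhR-poor diet was called at an adjusted p below 0.05, and Myd88 with no minimum fold change. Values that changed sign were not called in any setting. With 1 library left out, papain on the I3C diet gave -0.26 to 0.00 for Tlr3, -0.21 to 1.79 for Tlr7 and -0.38 to 1.49 for Tlr9, the diet with vehicle -0.15 to 0.09 for Tlr3 and -0.39 to 0.06 for Tlr5, and Myd88 -0.10 to 0.01 for the diet with papain and -0.01 to 0.25 in the interaction. Tlr3 for the diet with vehicle was 0.05 with library size only and 0.00 with filterByExpr or every gene with a count, and Myd88 for the diet with papain was 0.05 with library size only, a setting that moved the median of all genes in that comparison to 0.115. The cause was not tested. No paired analysis was possible because no replicate code occurs in more than 1 group. Tlr1, Tlr6, Tlr7 and Tlr9 had at most 15 reads in every library outside the AhR-poor papain group, so their differences between the other 3 groups are imprecise.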
